A study of Homo sapiens with 6 samples.

Results

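GJA1, GJB2, GJB5 and GJB6, which encode gap junction connexins of squamous epithelium, and PANX1, which encodes a pannexin, were followed through RNA-seq of a squamous carcinoma line grown in soft or stiff gel. The 5 genes were chosen by name, as epidermal connexins plus PANX1, out of 38167 genes in the count table. The cells were Cal27, an established line from a human squamous carcinoma of the tongue. They were grown as spheroids by liquid overlay within Matrigel, a gel-forming extract of basement membrane, and were harvested on day 14. The soft group had 3 mg/mL Matrigel and the stiff group 12 mg/mL, with 3 libraries each (polyA-selected, strand-directed library kit). The line carried no added genetic change or agent in either group that the labels name. A higher Matrigel concentration brings more matrix protein as well as a stiffer gel, and the effects of these cannot be told apart here. The labels call the libraries biological replicates without saying whether they came from separate cultures, so each p-value speaks only to the spread among these 6 libraries.

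Connexins assemble in 6s into a hemichannel, and hemichannels of touching cells dock to form a gap junction, through which ions and small metabolites pass from cell to cell. The make-up of the hemichannel sets its permeability, and stratified epithelia use several connexins at once, whose layer and level change with differentiation and wounding. Pannexins resemble connexins in fold but not in sequence; PANX1 forms channels in the membrane of a lone cell that release ATP, and caspases open it by cutting off its tail.

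The genes lie at 4 places in the genome (GRCh38). GJB2 (Entrez 2706, Cx26) lies on the minus strand of chromosome 13 at 20187470 to 20192938 and GJB6 (Entrez 10804, Cx30) beside it on the same strand at 20221962 to 20232319. GJA1 (Entrez 2697, Cx43) lies on the plus strand of chromosome 6 at 121435646 to 121449727. GJB5 (Entrez 2709) lies on the plus strand of chromosome 1 at 34755047 to 34758512. PANX1 (Entrez 24145) lies on the plus strand of chromosome 11 at 94128841 to 94181968. Each connexin has its whole coding sequence in 1 exon, for proteins of 382 (GJA1), 226 (GJB2), 273 (GJB5) and 261 (GJB6) residues, while the 426 codons of PANX1 are spread over 5 exons. No annotated exon of another gene overlapped the exons of these 5 genes. Of the possible 61-base reads, 4.0% of those of GJA1 also occurred in another gene, the pseudogene GJA1P1, which had no row in the count table; none did for the other 4.

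Sequence upstream of the start is shown for GJA1 and GJB2, which changed by different amounts, and for PANX1, which was not called, so that their letters can be set beside the changes (RefSeq, GRCh38.p14). RefSeq promoters matched 4 of the 5 genes. GJB5 is named only, and the window of GJB6 lies wholly in annotated exons and is not printed. Capitals mark matches, on either strand, to a GC box (GGGCGG), an AP-1 site (TGANTCA), an AP-2 site (GCCNNNGGC) or a TEAD site (GGAATG). The GJA1 line gives 30 bases around its match at chr6:121435586-121435615, which lie in an annotated exon upstream of the RefSeq start, the GJB2 line 178 bases at chr13:20193011-20193188 (minus strand) and the PANX1 line 250 bases at chr11:94128591-94128840.
GJA1: cctcctcccagtTGAGTCAgtggcttgaaa
GJB2: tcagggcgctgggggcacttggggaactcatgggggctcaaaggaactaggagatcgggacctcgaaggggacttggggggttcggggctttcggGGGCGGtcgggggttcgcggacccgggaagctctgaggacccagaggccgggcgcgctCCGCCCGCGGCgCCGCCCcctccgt
PANX1: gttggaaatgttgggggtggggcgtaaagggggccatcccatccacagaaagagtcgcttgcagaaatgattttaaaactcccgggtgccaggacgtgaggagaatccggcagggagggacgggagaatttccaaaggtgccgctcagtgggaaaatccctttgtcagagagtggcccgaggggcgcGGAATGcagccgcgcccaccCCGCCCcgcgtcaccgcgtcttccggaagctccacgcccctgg

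The letters differ between these windows of 250 bases upstream. GJA1 held 1 AP-1 match, 48 bases upstream of the start, a motif that 5.0% of 15843 protein-coding promoter windows of this length held, and no GC box. GJB2 held 3 GC boxes, 155, 97 and 85 bases upstream, and an AP-2 match at 95 that overlaps a GC box; 56.0% of all windows held a GC box and 24.2% an AP-2 match. PANX1 held a GC box at 43 and a TEAD match at 63 bases upstream, the latter found in 10.1% of all windows. The GJB6 window (chr13:20230979-20231228, minus strand) lies within the gene's own span, so the bases upstream of the whole gene were not scanned. That window held no match to any of these motifs. It also held no TATA box (TATAAA, in 9.2% of all windows) or Snail E-box (CACCTG, 17.1%), which the other 3 windows lacked as well. GC content was 48.0% for GJA1, 50.8% for this GJB6 window, 62.0% for PANX1 and 70.0% for GJB2, against a median of 62.4%. A match is a run of letters only, and no binding was measured here.

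The libraries held 30656278 to 40583044 counts, and 18676 genes passed the expression filter, with all 5 members among them at 1015 to 16828 counts per library. The first principal component (75.1% of the variance) parted the conditions. Stiff replicate 2 stood apart on the second (10.8%), at -35.0 against 21.5 and 18.3 for the other stiff libraries. Soft replicate 2 was the lowest of the soft libraries, at -13.0 against 1.98 and 6.28. Values for the members without stiff replicate 2 are given with the results.

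Of the 5 genes, 4 were higher in stiff gel and none was lower (edgeR quasi-likelihood test, adjusted p below 0.05), where 25.3% of all tested genes were called higher, 23.8% lower and 49.1% either way. The conditions did not overlap for any of the 5, as held for 59.9% of all tested genes. GJB6 and GJA1 rose most, GJB2 and GJB5 less, and PANX1 had slightly lower values in every stiff library. Levels of a gene are given here as CPM, its counts per 1000000 counts of the library, scaled with TMM factors. In bulk RNA a change in the share of cells that express a gene and a change in RNA per cell cannot be told apart.

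GJB6, a connexin of keratinocytes that also pairs with GJB2 in the inner ear, stood at 46.8, 44.6 and 50.7 CPM in the soft libraries and at 178, 185 and 159 CPM in the stiff ones. The lowest stiff library lay far above the highest soft one. The mean rose from 47.4 ± 3.10 to 174 ± 13.2 CPM (SD, n = 3), 3.67-fold, with a log2 change of 1.87 (SE 0.08, 95% interval 1.69 to 2.06, edgeR adjusted p = 2.37e-07). Without stiff replicate 2 the log2 change was 1.83.

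GJB2, whose loss causes the most common inherited deafness and whose gain-of-function variants cause skin disease, was the most abundant connexin per length in both conditions. Its levels were 290.0, 261 and 288 CPM in soft gel and 462, 472 and 457 CPM in stiff gel. The stiff libraries lay close together and all above the soft ones. The mean went from 279 ± 16.3 to 463 ± 7.60 CPM (SD, n = 3), 1.66-fold, a log2 change of 0.73 (SE 0.07, 95% interval 0.58 to 0.88, edgeR adjusted p = 1.68e-05). It was 0.72 without stiff replicate 2.

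GJA1, the most widely expressed connexin and in epidermis a gene of the basal and lower spinous layers, stood at 58.7, 56.2 and 71.4 CPM in soft gel. In stiff gel it stood at 224, 201 and 207 CPM. Soft replicate 3 was the highest of its group and still far under every stiff library. The mean rose 3.40-fold, from 62.1 ± 8.15 to 211 ± 11.8 CPM (SD, n = 3), a log2 change of 1.76 (SE 0.10, 95% interval 1.55 to 1.98, edgeR adjusted p = 6.64e-07), and the log2 change was 1.80 without stiff replicate 2.

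GJB5, a connexin of stratified epithelium, showed the smallest rise of the 4. Its soft levels were 34.2, 34.4 and 32.6 CPM, and its stiff levels 50.8, 56.8 and 46.6 CPM. The stiff libraries spread more than the soft ones, with stiff replicate 2 the highest, and did not reach down to them. The mean rose 1.52-fold from 33.7 ± 0.938 to 51.4 ± 5.13 CPM (SD, n = 3), a log2 change of 0.61 (SE 0.09, 95% interval 0.42 to 0.80, edgeR adjusted p = 0.000273). Leaving out stiff replicate 2 gave 0.53.

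PANX1 did not pass the test. It stood at 81.9, 82.0 and 85.3 CPM in soft gel and 77.5, 71.9 and 73.2 CPM in stiff gel, so that each stiff library was below each soft one by a small margin. The means were 83.1 ± 1.93 and 74.2 ± 2.92 CPM (SD, n = 3), and the log2 difference was -0.16 (SE 0.07, 95% interval -0.31 to -0.02, edgeR adjusted p = 0.0624). The adjusted p was 0.0349 without stiff replicate 2, at a log2 difference of -0.14, and ranged from 0.0179 to 0.168 over the 17 alternative settings.

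**Figure D1:**
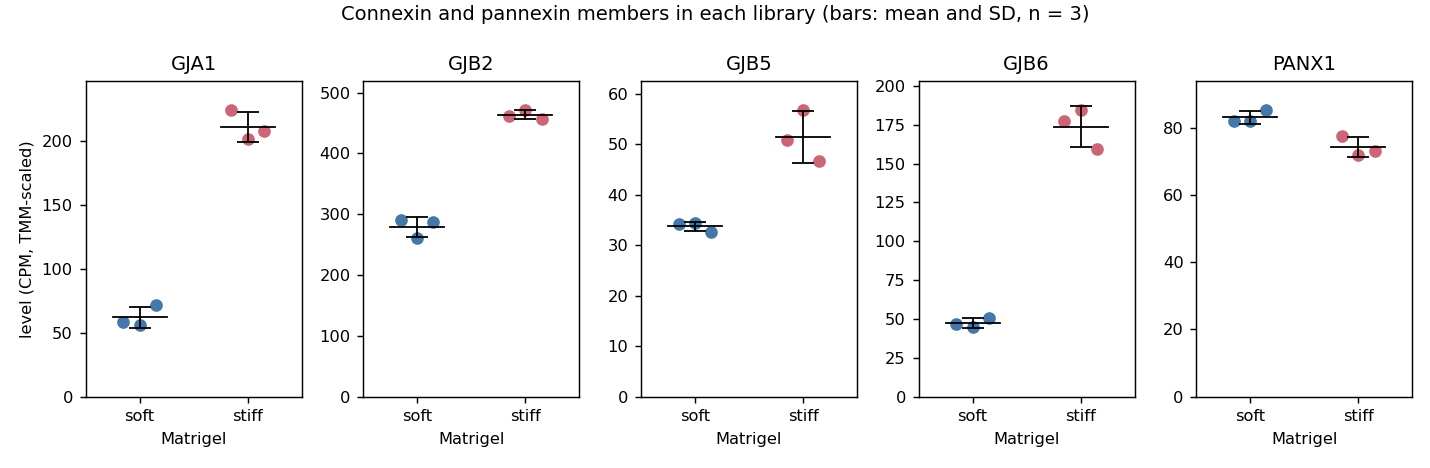
TMM-scaled CPM (y axis, from 0, a scale of its own per gene) of the 5 genes in soft and stiff gel, 1 point per library, with bars for the mean and SD (n = 3). The conditions do not overlap in any panel; GJB6 goes from 47.4 to 174 CPM and PANX1 from 83.1 to 74.2 CPM.

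The rest of both families was read from the same fit. The table held 21 connexins and 3 pannexins, of which 13 passed the filter: 9 rose, 1 fell and 3 were not called, beside 25.3% higher and 23.8% lower over all tested genes. Their median log2 change was 0.61 against 0.00 over all tested genes.

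Several of these were at low levels. GJC1, a connexin best known from heart and vessel muscle, went from 8.41 to 13.0 CPM (log2 change 0.62, edgeR adjusted p = 0.00118). GJA3, a lens connexin in the cluster of GJB2 and GJB6, went from 4.87 to 6.78 CPM (0.48, adjusted p = 0.00679). PANX2, a pannexin best known from brain, rose from 29.8 ± 0.315 to 45.5 ± 0.741 CPM (SD, n = 3; log2 change 0.61, adjusted p = 6.04e-05), with a 95% interval of 0.46 to 0.76; the difference from PANX1 was not tested. GJD3 was the only one of the 13 called lower, from 7.41 ± 0.487 to 2.41 ± 0.157 CPM (log2 change -1.62, adjusted p = 7.65e-06); 82.8% of its exons are covered by a gene on the opposite strand, so its value is uncertain.

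GJA9 was not called, at a log2 difference of 0.18 (edgeR adjusted p = 0.478), and 92.3% of the exons of GJA9 belong also to a readthrough gene. A further 11 genes of the families failed the filter, with at most 6 counts in any library. Among them were GJA4 and GJA5, connexins of endothelium, at 0 to 3 counts. GJD2, GJE1 and PANX3 had 0 counts in every library, which allows up to 0.0979 CPM (3 counts) in the smallest library; such limits cover counting error only.

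**Figure D2:**
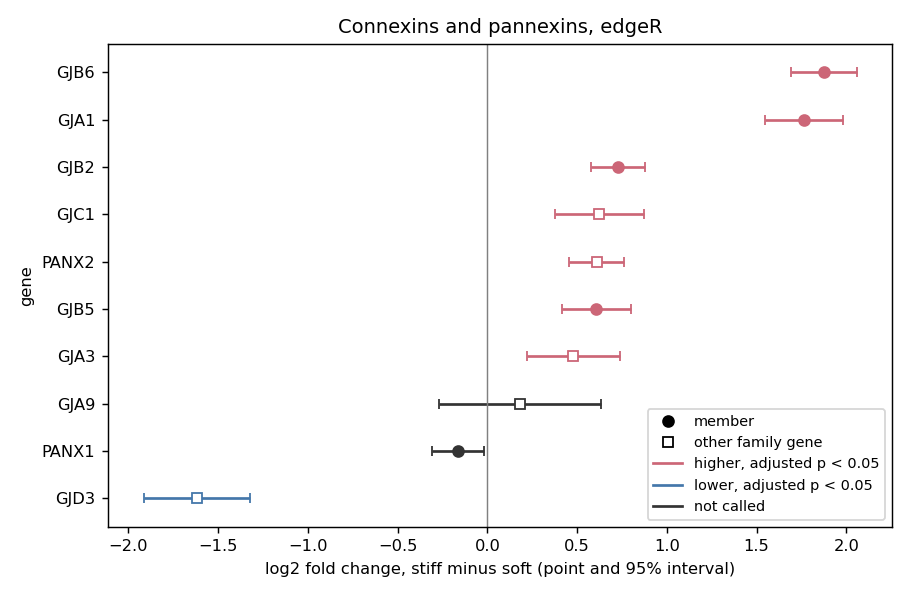
Log2 fold change, stiff minus soft, of connexins and pannexins (x axis) with the 95% interval from edgeR, filled for the 5 genes followed here and open for the others. GJB6 and GJA1 lie highest at 1.87 and 1.76, the PANX1 interval ends just below 0, and GJD3 lies lowest at -1.62.

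The connexins were then compared within each library. The deposited TPM values (transcripts per 1000000) are per length, but the length they imply was 7.53 kb for GJB6 and 8.29 kb for PANX1, whose main transcripts are 2.13 and 2.77 kb, and 1.68 kb for GJA1, whose main transcript is 3.08 kb. For GJB2 they were 2.51 and 2.36 kb. Levels of different genes are therefore given on 2 per-length scales, the deposited TPM and CPM per kilobase of main transcript, the latter added after seeing the data. The edgeR change of a gene between conditions uses counts and no length.

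Summed over the connexins, the level rose from 527 ± 35.8 to 1004 ± 44.0 TPM (SD, n = 3), or from 239 ± 9.64 to 482 ± 19.1 CPM per kilobase. GJB2 was the most abundant of the tested connexins and pannexins on both scales and in both conditions, at 258 TPM in soft and 396 TPM in stiff gel. By CPM per kilobase, soft gel ranked the members GJB2 (118), PANX1 (30.002), GJB5 (24.9), GJB6 (22.2) and GJA1 (20.1), where GJB6 and GJA1 overlapped between libraries. Stiff gel ranked them GJB2 (196), GJB6 (81.4), GJA1 (68.4), GJB5 (37.9) and PANX1 (26.8), with no overlap between neighbours. PANX1 stood above GJB5, GJB6 and GJA1 in soft gel and below all 3 in stiff gel.

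By TPM the same genes took other places. Soft gel had GJA1 (85.7) behind GJB2, then GJB5 (48.2), PANX1 (23.3) and GJB6 (14.6), the last overlapping PANX2 (14.0). Stiff gel had GJA1 (269.8) next to GJB2, then GJB5 (67.8), GJB6 (49.4) and PANX2 (19.8), which overlapped PANX1 (19.2). On both scales GJB6 stood below PANX1 in soft gel and above it in stiff gel.

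In the make-up of the connexin transcripts, GJB2 had a smaller share, and GJA1 and GJB6 larger shares, in every stiff library. GJB2 made up 50.3%, 48.1% and 48.5% of connexin TPM in the soft libraries and 38.8%, 39.3% and 40.3% in the stiff ones. No stiff library reached the lowest soft share. GJA1 went the other way, from 16.2% ± 1.52 to 26.8% ± 1.61 (SD, n = 3) by TPM and from 8.43% ± 0.867 to 14.2% ± 0.989 per kilobase. GJB6 went from 2.77% ± 0.0769 to 4.92% ± 0.224 by TPM and from 9.31% ± 0.329 to 16.9% ± 0.631 per kilobase. GJB5 went from 9.16% ± 0.648 to 6.76% ± 0.496 by TPM and from 10.4% ± 0.669 to 7.85% ± 0.488 per kilobase.

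For each of these 4 shares the conditions did not overlap, and the exact two-sided permutation test gave p = 0.1, the smallest that 3 against 3 libraries can give. GJB2 and GJB6 together, the pair from chromosome 13, went from 51.7% to 44.4% by TPM (exact p = 0.1) but from 58.9% to 57.6% per kilobase, where the conditions overlapped (exact p = 0.2). The 4 connexin members together held 77.1% in soft and 78.0% in stiff gel of connexin TPM, where the conditions overlapped (exact p = 0.3). Per kilobase they held 77.8% and 79.6%, where the conditions did not overlap (exact p = 0.1).

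**Figure D3:**
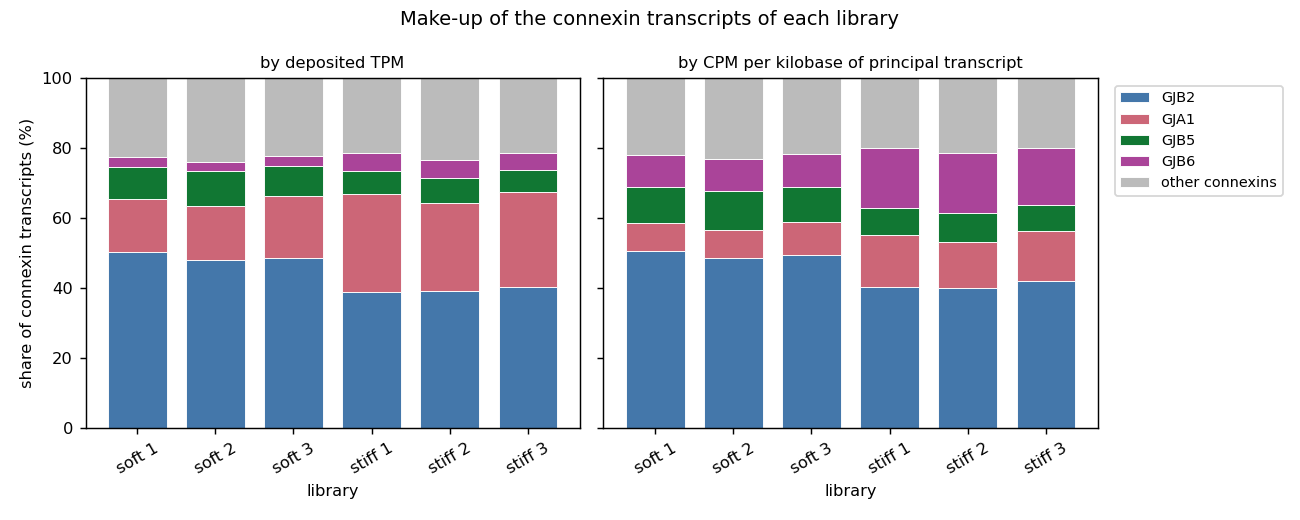
Share of the 4 connexin members and of all other connexins (y axis, percent) in the connexin transcripts of each of the 6 libraries, by deposited TPM on the left and by CPM per kilobase of main transcript on the right. GJB2 takes a smaller part in every stiff library and GJA1 and GJB6 larger parts; the part of GJB6 depends on the scale (4.92% against 16.9% in stiff gel).

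Ratios between the members within a library, which do not depend on scaling between libraries, were compared for all 10 pairs. The conditions did not overlap for 8 of them (exact two-sided permutation p = 0.1, Benjamini-Hochberg adjusted p = 0.125 over the 10 pairs). The pairs were built from the same 5 members, so they are not 10 separate results. Single genes did not overlap for 59.9% of all tested genes, and the share for ratios of other genes was not computed. The mean log2 TPM ratio of the neighbours GJB2 to GJB6 was 4.14 in soft and 3.00 in stiff gel. That of GJA1 to GJB2 was -1.60 and -0.56, and that of GJB6 to PANX1 -0.67 and 1.36.

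For the remaining pairs the conditions overlapped. GJA1 over GJB6 was 2.49, 2.50 and 2.65 in soft and 2.50, 2.29 and 2.54 in stiff gel (difference -0.10, exact p = 0.5). GJB2 over GJB5 was 2.46, 2.29 and 2.51 against 2.55, 2.42 and 2.66 (difference 0.13, exact p = 0.3, adjusted 0.333). These pairs join the genes with the largest changes among the 5, GJA1 and GJB6, and the other 2 connexin members, GJB2 and GJB5; a p of this size does not show that the genes of a pair changed equally.

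Neighbouring connexin genes had changes of different size. The chromosome 13 cluster (GJA3, GJB2, GJB6; 94.1 kb) held log2 changes of 0.48, 0.73 and 1.87. All 3 genes rose. Of the nearest tested protein-coding genes outside, ZMYM2 (49.1 kb away) had -0.07 (edgeR adjusted p = 0.460), while CRYL1 (171.4 kb) was higher by 0.53 (adjusted p = 0.000987). The neighbours of PANX1 and GJA1 were likewise taken among protein-coding genes only. Beside PANX1, HEPHL1 (14.6 kb) rose by 1.13 (edgeR adjusted p = 0.00303) and MRE11 (233.6 kb) had 0.15 (adjusted p = 0.139). Beside GJA1, TBC1D32 (100.9 kb) rose by 0.40 (adjusted p = 0.00417) and HSF2 (949.8 kb) by 0.38 (adjusted p = 0.0120).

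Likeness of pattern was described by Pearson's r of log2 CPM over the 6 libraries among the 12429 genes that averaged 5 CPM or more. The libraries form 2 separate groups, so r mostly reads the step between them and carries no test. Among the members, GJB6 lay closest to GJA1 and GJB2 (r = 0.994 with each), GJB5 lay a little further from the other connexins (0.940 to 0.971), and PANX1 had negative r with them (-0.857 to -0.916). Among the 3 genes most like each member were NDRG1, a stress-response gene, and CA12, a membrane carbonic anhydrase, for GJA1. They were TMEM19, DTNB and the pseudogene HLA-V for GJB2. For GJB5 they were DICER1-AS1, TBC1D17 and CENPP, and for GJB6 LRP11, KRT1 and PRSS23. Exons of HLA-V, CENPP, LRP11 and PRSS23 overlap other genes, so these are uncertain. KRT1 is a keratin of suprabasal keratinocytes and went from 2.04 to 45.5 CPM. PANX1 was most like RIC8B (r = 0.996), ITGB2, a leukocyte integrin subunit (0.992), and INSR, the insulin receptor (0.991).

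Of 21 genes for proteins that bind connexins or carry them through the cell, 7 rose and 6 fell (median log2 change -0.02). Over all tested genes the shares were 25.3% and 23.8%, and the difference from them was not tested. CAV1, a caveolar scaffold reported to bind GJA1 protein, rose from 583 to 1044 CPM (0.84, edgeR adjusted p = 5.09e-06), and EZR, a linker of membrane and actin, rose from 310 to 476 CPM (adjusted p = 3.09e-05). CCN3, a matricellular protein that binds the GJA1 tail, rose from 8.37 to 15.8 CPM (0.92, adjusted p = 4.31e-05). TUBB, a tubulin, rose as well (0.62, adjusted p = 4.09e-05), with 16.0% of its exons under an opposite-strand gene. TJP1, the scaffold ZO-1 at the edge of gap junction plaques, was among the 6 that fell, from 112 to 73.5 CPM (-0.61, adjusted p = 0.00181); it is named beyond the fixed rule, after its value was seen.

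Of 17 kinases and phosphatases that act on connexins, 8 rose and 3 fell (median 0.17), beside 25.3% and 23.8% of all tested genes. CDK1 and CCNB1, the mitotic kinase and its cyclin, rose most clearly, from 22.9 to 79.7 CPM (1.80, edgeR adjusted p = 1.16e-06) and from 52.4 to 126 CPM (1.26, adjusted p = 8.48e-07). MAPK3, an ERK kinase that phosphorylates the GJA1 tail, rose from 48.3 to 84.5 CPM (0.81, adjusted p = 1.00e-05). PRKCE, a protein kinase C, fell from 13.1 to 8.52 CPM (-0.62, adjusted p = 0.00224). Of the same family, PRKCA rose from 4.27 to 6.69 CPM (0.65, edgeR adjusted p = 0.0152) and PRKCD from 24.8 to 29.8 CPM (0.26, adjusted p = 0.0189). PRKCA and PRKCD are named beyond the fixed rule, after their values were seen. The count of 8 was 3 with limma on log2(TPM + 1) and 5 without soft replicate 1, but 9 with a replicate block and 11 without stiff replicate 2.

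Around PANX1, 7 of 17 tested genes of its cleavage and of extracellular ATP signalling rose and 4 fell (median 0.18), beside 25.3% and 23.8% of all tested genes. Those with the smallest p were ENTPD2 and ENTPD8, which break down ATP outside the cell, and P2RY6 and P2RX7, nucleotide receptors. ENTPD2 rose from 12.1 to 28.1 CPM (1.22, edgeR adjusted p = 1.95e-05) and ENTPD8 from 2.51 to 7.26 CPM (1.54, adjusted p = 2.55e-05). P2RX7, an ATP-gated channel functionally coupled to PANX1, rose from 16.9 to 28.9 CPM (0.77, adjusted p = 0.000160), and P2RY6, a UDP receptor, from 19.2 to 33.6 CPM (0.81, adjusted p = 0.000150).

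Of 7 tested other large-pore channels, 2 rose and 3 fell, beside 25.3% and 23.8% of all tested genes; the count of 3 was 1 without soft replicate 1, without soft replicate 2 or without stiff replicate 1. LRRC8A, the obligate subunit of the volume-regulated anion channel, rose from 181 to 285 CPM (0.66, edgeR adjusted p = 8.63e-05), and its partner LRRC8C rose from 9.67 to 15.4 CPM (0.67, adjusted p = 0.000806), while LRRC8B fell from 34.4 to 20.1 CPM (-0.78, adjusted p = 0.000488). CALHM6 fell from 2.81 to 1.88 CPM (adjusted p = 0.0192) and is uncertain, as 34.7% of its exons overlap another gene. The remaining gene that fell was LRRC8D, from 54.2 to 45.8 CPM (-0.24, edgeR adjusted p = 0.0289). LRRC8D is named beyond the fixed rule, after its value was seen.

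Of 14 tested factors known to act on connexin promoters, 5 were higher and 4 lower (median -0.01), beside 25.3% and 23.8% of all tested genes. The difference from those shares was not tested. ELF3, an epithelial ETS factor, fell from 533 to 290 CPM (-0.88, edgeR adjusted p = 9.67e-06). TP63, the master factor of stratified epithelium, rose from 311 to 499 CPM (0.68, adjusted p = 0.000131), and SNAI2, an E-box repressor, from 68.4 to 98.0 CPM (0.52, adjusted p = 0.000110). TFAP2A, an AP-2 factor, rose from 153 to 245 CPM (0.68, adjusted p = 2.02e-05), with 11.4% of its exons overlapped by its antisense gene.

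**Figure D4:**
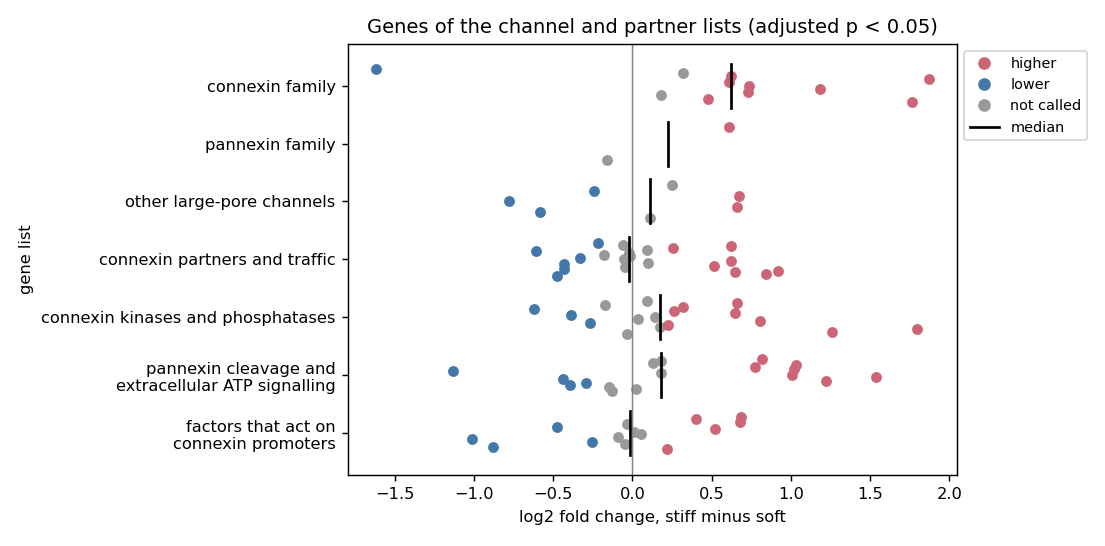
Log2 fold change, stiff minus soft (x axis), of every tested gene in the 2 families and the 5 lists of related genes (rows), coloured by call at an edgeR adjusted p below 0.05, with a bar at each list's median. The connexin family has its median at 0.62, while partners and promoter factors have theirs near 0.

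Markers of the labelled cell type and of others were read beside these results. Of the 15 keratinocyte markers, 10 of 14 tested rose and 1 fell (median log2 change 1.38), beside 25.3% and 23.8% of all tested genes. Their summed level was 9396 to 10259.9 CPM in soft and 23409.8 to 25001 CPM in stiff gel. The 4 with the smallest p all rose. They were KRT16, from 118 to 1610.4 CPM, and KRT6A, from 450.3 to 1737 CPM, both keratins of wounded or proliferating epithelium, KRT1, the suprabasal keratin given above, and KRT14, a basal keratin, from 822 to 5159.9 CPM. The 1 marker that fell was KRT15, also a basal keratin, from 2718 to 1651 CPM (log2 change -0.72, edgeR adjusted p = 1.40e-05), and it is named after its value was seen. The part of these markers in the connexin results was not tested.

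Markers of cells other than epithelium gave mixed values: several defining ones were under 1 CPM, while COL1A1, CD68 and CD14 lay in the range of the less abundant members. The fibroblast sum was 72.9 to 80.4 CPM in soft and 99.3 to 106 in stiff gel, led by COL1A1 (71.8 and 82.6 CPM) and with LUM, a matrix proteoglycan, higher in stiff gel (2.31 and 17.3 CPM, edgeR adjusted p = 6.15e-06), with COL3A1, DCN, PDGFRA and PDGFRB under 1 CPM in every library; 2 of 4 tested rose. The endothelial sum was 10.999 to 14.0 and 3.87 to 5.07 CPM, mostly CDH5 in soft gel (10.4 and 0.552 CPM), with PECAM1, KDR, TEK and CLDN5 under 1 CPM; of 3 tested, 1 rose and 1 fell. The immune sum was 106 to 114 and 136 to 149 CPM, led by CD68 (55.8 and 101 CPM, 81.7% of its exons shared with an overlapping gene) and CD14 (51.4 and 36.6 CPM), with PTPRC and CD3E under 1 CPM; of 4 tested, 2 rose and 1 fell. The glial sum was 4.21 to 4.84 and 3.95 to 4.08 CPM, led by GFAP (3.50 and 2.31 CPM), with S100B at 0 counts in every library. Of 2 tested glial markers, 1 rose and 1 fell. The counts of these marker lists stand beside 25.3% higher and 23.8% lower over all tested genes.

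**Figure D5:**
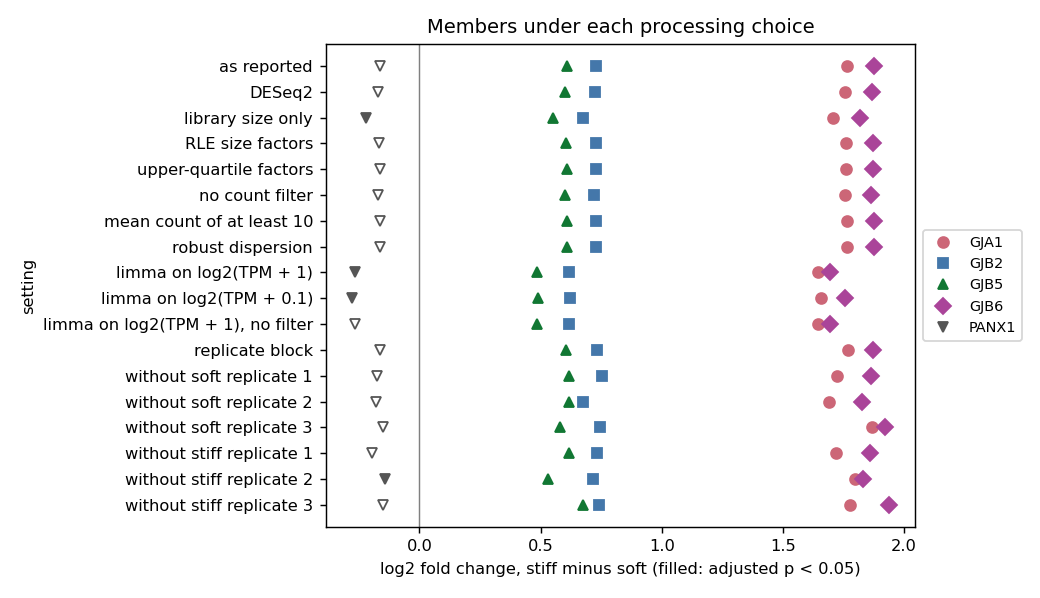
Log2 fold change, stiff minus soft (x axis), of the 5 genes under the reported fit and 17 alternatives (rows), filled where the adjusted p is below 0.05. GJA1, GJB2, GJB5 and GJB6 are filled in all rows, and PANX1 lies below 0 in all and is filled in 4.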

How the data were processed

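RNA was measured in 6 libraries of Cal27 spheroids, 3 from soft and 3 from stiff Matrigel. Per the labels' protocols, polyA-selected RNA went through a directional kit with 10 PCR cycles and paired 61-base sequencing. The submitters' processing notes name featureCounts 1.6.2, STAR 2.6.1e and hg38, with trimming by Trim Galore 0.4.2 over cutadapt 1.9.1 and read checks by FastQC 0.11.7. Settings for annotation, strand and multi-mapped reads were not given in the sources used here. Deposited by the authors were 1 table of raw counts per gene and a TPM file per library. TPM as deposited by the authors is counts over a fixed length per gene (ratio constant within 5% over libraries for 100% of 6967 genes with at least 200 counts and 5 TPM).

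Counts were fitted as deposited with edgeR 4.0.16 (R 4.3.3; TMM factors, filterByExpr, quasi-likelihood F test, Benjamini-Hochberg over 18676 genes, threshold 0.05), soft against stiff, with no block. Shares and ratios within a library were compared with exact two-sided permutation tests (scipy 1.17.1). Standard errors are the log2 change over the root of F. The fitting script was tested on simulated data. Library totals of 30656278 to 40583044 counts make 1 count 0.0326 CPM in the smallest library. Positions, promoters and overlaps came from RefSeq (GRCh38.p14) and GENCODE annotation.

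Genes named are the 5 members, other tested connexins and pannexins, up to 4 genes of smallest p in each of 12 lists, the most abundant marker of other cell types, and the 3 genes most like each member. A few items that this rule names are not reported here. The members and lists were chosen with earlier results of these data known. Alternatives were limma 3.58.1 on log2(TPM + pseudocount of 1 or 0.1), DESeq2 1.42.0, other scalings and filters, a replicate block and leaving out each library; lengths per kilobase and list counts under each were added after seeing the data.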

Additional observations from a re-analysis of the deposited data

How the results depend on the processing

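GJA1, GJB2, GJB5 and GJB6 kept their direction and their call under all 17 alternatives, with log2 changes of 1.65 to 1.87, 0.62 to 0.75, 0.48 to 0.68 and 1.69 to 1.94 and highest adjusted p (limma, DESeq2 or edgeR) of 0.00107, 0.00427, 0.00423 and 0.000406. PANX1 had a lower level in stiff gel in all 17 and was called lower in 4: library size only (-0.22, edgeR adjusted p = 0.0179), limma on log2(TPM + 1) (-0.27, adjusted p = 0.0355), limma on log2(TPM + 0.1) (-0.28, adjusted p = 0.0367) and without stiff replicate 2, with leave-one-out values of -0.19 to -0.14. In those 4, the members held 1 lower call in place of 0 and the families 2 in place of 1; the cause was not tested. GJC1 was not called by limma on log2(TPM + 1) with no filter (adjusted p = 0.0871).

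Shares of connexin transcripts moved with the length used, by construction: per kilobase of main transcript and of all exons, the difference in percentage points was 7.56 and 5.73 for GJB6, 5.76 and 6.14 for GJA1, and -1.31 and -2.03 for GJB2 with GJB6, and with all exons -7.76 for GJB2.

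The fit called 4722 genes higher and 4449 lower (51.5% higher). Library size only called 4181 and 5170 (44.7%), limma on log2(TPM + 1) 2880 and 4088 (41.3%), and on log2(TPM + 0.1) 2831 and 3972 (41.6%), the last with a median over all genes of -0.11. With a replicate block, 5167 and 5039 were called, and no member's call changed. The replicate numbers were not shown to pair the libraries. Same-numbered ones had correlations of deviations of 0.073, 0.216 and 0.050, and the 0.216 of replicate 2 was the highest of all pairs. Soft replicate 1 lay closest to stiff replicate 3 (0.0766), and soft replicate 3 to stiff replicate 1 (0.0930). Whether the libraries numbered 2 share an effect was not tested. With 3 libraries a group, no exact test could go below p = 0.1.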

Other observations

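The length that the deposited TPM values imply was not the exon length for many genes. Across 6967 genes it had a Spearman correlation of 0.62 with the annotated exon length and of 0.90 with the longest transcript times the number of RefSeq transcripts, both descriptions across genes, which are not independent. GJB6, with 9 RefSeq transcripts, had an implied length 3.53 times its main transcript, PANX1 (3 transcripts) 2.99 times, GJB5 1.20 times, GJB2 1.06 times and GJA1 (1 transcript) 0.545 times. GJC1, with 10 transcripts, had 25.8 kb for a main transcript of 7.64 kb. The cause was not tested. A comparison of TPM between genes in these files depends on this length. The edgeR comparison of a gene between conditions uses counts and no length. A TPM comparison between conditions rests on the lengths of all genes, since TPM scales each library to a fixed total. The median log2 change over all genes was -0.09 with limma on log2(TPM + 1) and -0.000174 in the edgeR fit, and why they differ was not tested.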
